A study of Mus musculus with 2084 samples.

Results

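Oligodendrocytes, the glia that wrap axons of the brain and spinal cord in myelin, were described from 58 single cells of the ventricular-subventricular zone (vSVZ) of naive wild-type mice. They are the rows of the RNA count table whose label gives the cell type oligodendrocyte, the genotype WT and the treatment naive. Replicate pA held 9 of them, pB 24, pC 25 and pE none. They were 58 of the 253 naive WT cells of these 4 replicates and of the 1981 labelled cells of the series in the table. Another 2 cells with the same labels were not analysed here. Set beside the 58 are 13 oligodendrocytes of naive mice of the genotype TiCY, with other cell types of their replicate, pM. Whether the pM mice had tamoxifen is not given here. The study sorted astrocytes, oligodendrocytes and the adult neural stem cell lineage and measured their RNA by Smart-seq3, as the transcriptome part of a combined single-cell assay of RNA, DNA methylation and chromatin accessibility.

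The other 195 naive WT cells of pA, pB, pC and pE carried 6 type labels. There were 61 qNSC1 and 16 qNSC2 (2 states of quiescent neural stem cells), 17 aNSC (activated stem cells), 17 TAP (transit-amplifying progenitors), 72 neuroblasts and 12 astrocytes of the striatum, the last all from pE. No WT mouse received tamoxifen or was made ischemic, and no age or strain of the WT mice is stated in the sources used here. A replicate letter stands for 1 mouse or several, and a plate held cells of individual or pooled animals, so p-values measure the spread between letters. Antibodies used for sorting included O4, GLAST, PSA-NCAM, Prominin1, CD9, CD45 and Ter119, and the cell names give 4 gates (OLIGO, NSC, ASTRO and NB) without saying which antibodies define each. All 50 OLIGO-gate cells carried the oligodendrocyte label. So did 8 of 41 NSC-gate cells, 1 of 9 in pA, 7 of 15 in pB and 0 of 17 in pC, against 0 of 48 ASTRO-gate and 0 of 67 NB-gate cells. The type labels may rest on these same transcriptomes, so p-values between labelled types are descriptive, whereas the gates were set on surface staining.

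An oligodendrocyte held between 28541 and 1842234 counts, with a median of 406404, over 4414 to 9763 genes. Depth differed by letter, with medians of 467883 counts in pA, 1162467.5 in pB and 169226 in pC, and the other types followed it (651989.5, 963735 and 143604). Letter pC is a separate library set, in which Olfr905 alone took 1.67% of the oligodendrocyte counts against 0.00149% in pA and 0.000424% in pB. Within a letter, the counts of all cells with the same type label, or from the same gate, were added up, because cells of a letter share their animals. Levels below are CPM of these sums (counts scaled to the same library size), and a gene is called higher or lower where edgeR's quasi-likelihood test with Benjamini-Hochberg adjustment gave an adjusted p under 0.05.

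As background, oligodendrocytes arise from dividing precursors that carry Pdgfra and Cspg4, stop dividing, pass through a short newly formed stage with Gpr17, Bmp4 and Enpp6, and then make large amounts of membrane. Compact myelin consists of lipid, rich in cholesterol and galactolipids, and of a few very abundant proteins, Mbp among them. The transcription factors Olig2, Sox10 and Myrf drive the lineage, and mature cells feed axons with lactate, share ions through gap junctions and store iron. The vSVZ lies under the corpus callosum and beside the striatum, and its stem cells give rise to neuroblasts and to some oligodendrocytes.

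The 5 genes fixed as markers all matched the label. All 58 cells had counts of Mbp, Mog, Sox10, Ndrg1 and Jam3. Mbp, a main protein of compact myelin, was at 10510, 9344 and 9545 CPM in the oligodendrocyte sums of pA, pB and pC. In the sums of all other types it was at 24.87, 18.95, 9.369 and 11.15 CPM in pA, pB, pC and pE, so the groups were far apart (log2 fold change 9.25 ± 0.61 SE, adjusted p = 7.98e-05). Mog, a protein of the outer myelin surface, stood at 2243, 2263 and 1346 CPM against 13.43, 10.31, 2.998 and 0.2843 CPM (8.17 ± 1.16, adjusted p = 0.00105).

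Sox10, a transcription factor of the whole oligodendrocyte lineage (GRCm38 chr15:79154908-79165240), was at 241.2, 211 and 193.4 CPM, and the other sums did not exceed 0.1562 CPM (11.3 ± 0.72, adjusted p = 7.98e-05). Ndrg1, a cytoplasmic protein of myelinating cells (chr15:66929318-66969640), stood at 1779, 1490 and 1763 CPM, against at most 2.789 CPM elsewhere (9.5 ± 0.51, adjusted p = 7.95e-05). Jam3, a junctional adhesion molecule (chr9:27097384-27155421), separated the cells least. It was at 290.8, 362.1 and 342.5 CPM against 28.9, 22.32, 24.45 and 31.07 CPM (3.64 ± 0.38, adjusted p = 0.000235), and among the 15 sums of single types the qNSC2 sum of pB reached 168.7 CPM. The plot of these markers by type shows the oligodendrocyte points above every other sum for all of them.

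**Figure D1:**
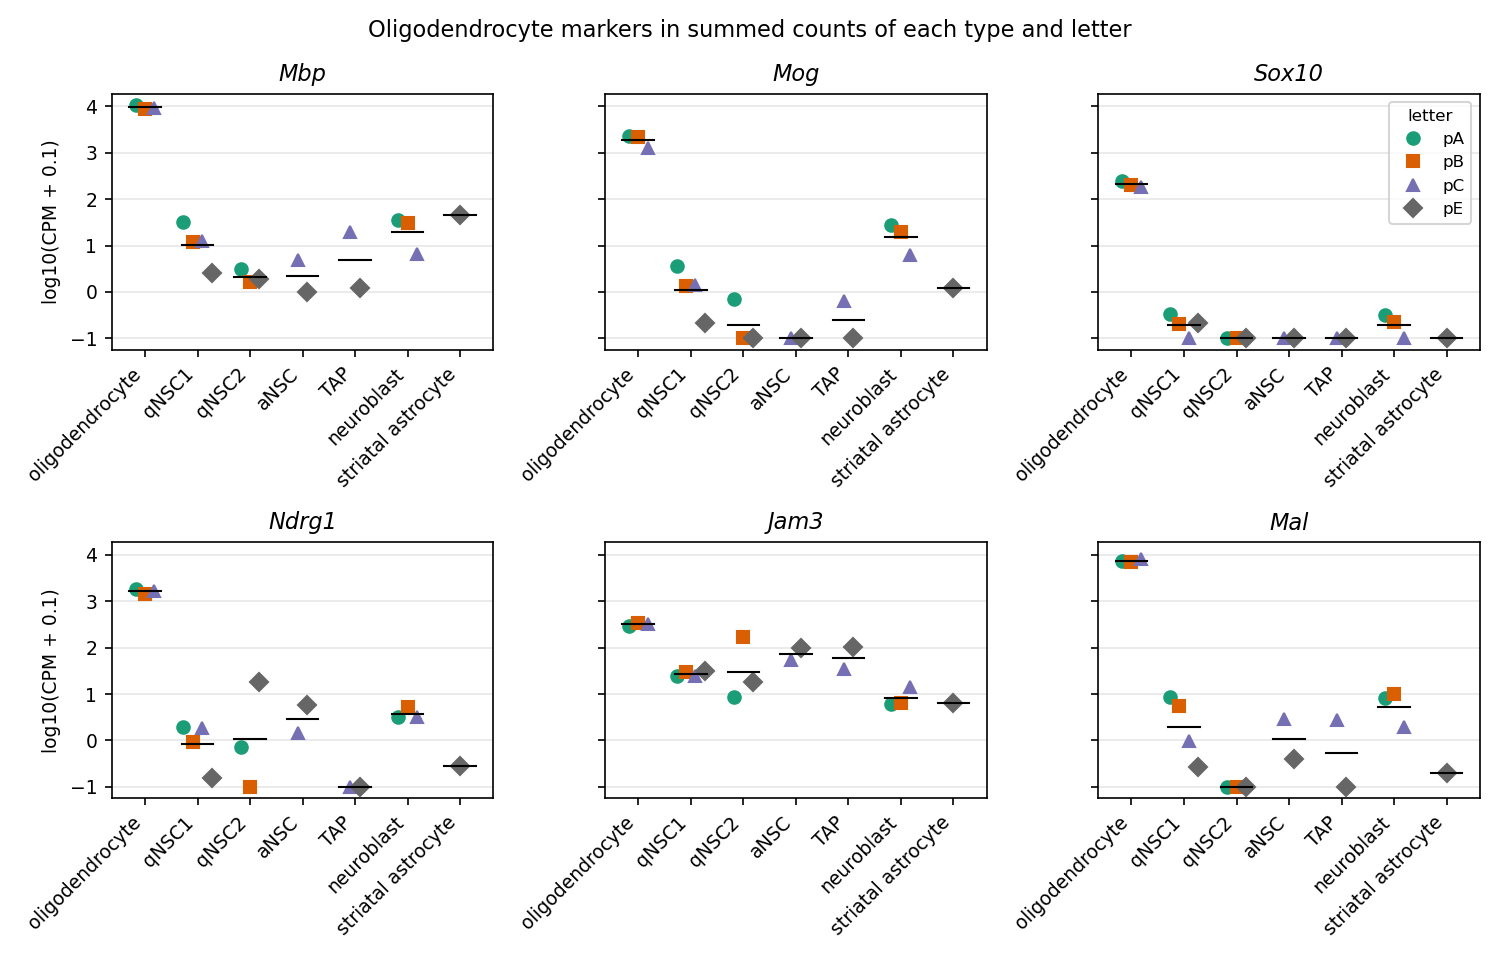
Levels of Mbp, Mog, Sox10, Ndrg1, Jam3 and Mal, a raft protein of myelin, in the summed counts of each labelled type and letter of naive WT mice, on a log10 scale of CPM with 0.1 added; each point is a letter and each bar the mean of the log values. The 3 oligodendrocyte sums lie above all sums of the other types in each panel, by the narrowest margin for Jam3.

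Against all other types summed per letter, 1200 of 15324 genes tested were higher in oligodendrocytes (7.83%) and 1916 lower (12.5%), in a fit of 7 sums. The total of 3116 became 1777 without pA, 1703 without pB, 2770 without pC and 2835 without pE. In a fit of 18 sums of single types over 17024 genes, 1899 genes differed from qNSC1 (11.2%), 1779 from qNSC2 (10.4%), 1408 from aNSC (8.27%), 1656 from TAP (9.73%), 1892 from neuroblasts (11.1%) and 883 from striatal astrocytes (5.19%). The striatal astrocytes are a single sum, assumed to vary like the other groups. Called higher than in each of the 5 vSVZ types were 232 genes (1.36%), and 251 were lower than in each (1.47%). Leaving out a letter brought these 483 genes to between 241 (without pA) and 297 (without pC).

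The myelin sheath list held 24 genes, all tested. Of these, 23 were higher than in the other types together and none was lower, with a median log2 fold change of 7.95 against -0.13 over all genes tested. Within each cell the 24 genes together took 72140 to 141600 CPM, with a median of 103400 CPM. Per kilobase of exon, Cldn11, the claudin that seals the layers of the sheath, averaged 2667 CPM per kilobase, Mal 2261, Cnp 1920 and Mbp 932.9.

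Single sheath genes stood far above the remaining types. Mal, a raft protein of myelin membrane (chr2:127633226-127656695), was at 7299, 7332 and 8711 CPM against at most 6.293 CPM (11.08 ± 1.31, adjusted p = 0.000411). Cldn11 had 3449, 5942 and 9122 CPM against at most 7.007 CPM, highest in pC. Mobp, Opalin and Mag followed the same pattern, with log2 fold changes of 10.18, 10.18 and 9.68. Cnp, a phosphodiesterase of the cytoplasmic channels in myelin, was very even across letters at 8610, 8729 and 8686 CPM, against 45.81 to 130.6 CPM in the other sums (6.62 ± 0.55, adjusted p = 9.8e-05).

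Some members of the list were shared with the other cells. Gpm6b, a membrane glycoprotein, had 5289, 6280 and 4995 CPM against 775.9 to 1895 CPM (log2 fold change 2.09, adjusted p = 0.00708), a call lost without pA (0.113) or without pB (0.0921). Cd9, a tetraspanin whose protein was among the sort antigens, had 530.4, 615.1 and 428.7 CPM against 141.8 to 220.4 CPM (1.61, adjusted p = 0.0139), and was not called without pA (0.135) or pB (0.132). Myrip was the member that did not pass, at 1.141 to 3.238 CPM against 3.467 to 24.05 CPM (-2.4, adjusted p = 0.0815). In the single-type fit, 17 of the 24 were higher than in each of the 5 vSVZ types and none was lower than in each.

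Since sheath genes stood high together, the bases before their starts were searched for short strings on both strands: ACAAAG, a string bound by SOX factors, and CTGGCAC, the string bound by Myrf. RefSeq windows of 250 bases before the start (GRCm38.p6) were matched for 179 of the 232 genes higher than in each vSVZ type. The remaining genes, Mbp among them, were not searched, because some windows were left out before the search. The sheath genes named below therefore come from the searched genes only. The shares below are of genes, and a gene counted if any of its windows held the string. ACAAAG was found for 40 of these 179 genes (22.3%). It was found for 36 of 194 genes lower than in each type (18.6%) and 1804 of 11849 of all genes tested (15.2%). For CTGGCAC the shares were 14 (7.82%), 13 (6.7%) and 621 (5.24%), and for both strings 5 (2.79%), 4 (2.06%) and 123 (1.04%). The 2 strings of a gene could lie in different windows, and 4 of the genes higher than in each type held both in 1 window. The sheath genes Cnp and Mag each held both strings in a single window, and these windows are printed 5′ to 3′ on the strand of the gene, with the strings, or their reverse complement CTTTGT for the first, in capitals. A match describes letters and is not evidence of binding.
Cnp, chr11:100574689-100574938, plus strand: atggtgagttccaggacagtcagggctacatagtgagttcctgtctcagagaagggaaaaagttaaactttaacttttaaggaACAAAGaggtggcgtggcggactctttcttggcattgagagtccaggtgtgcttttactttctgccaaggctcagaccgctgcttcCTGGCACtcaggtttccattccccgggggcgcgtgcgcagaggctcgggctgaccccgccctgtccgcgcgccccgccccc
Mag, chr7:30914923-30915172, minus strand: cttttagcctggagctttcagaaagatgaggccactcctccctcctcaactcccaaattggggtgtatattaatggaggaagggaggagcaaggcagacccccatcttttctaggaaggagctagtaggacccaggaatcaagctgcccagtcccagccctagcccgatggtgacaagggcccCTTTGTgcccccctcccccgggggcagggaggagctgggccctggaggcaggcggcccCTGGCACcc
In the Cnp window the strings begin 167 and 81 bases before the start, and in the Mag window 67 and 9 bases before it.

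Lipid genes split by pathway. Of 26 genes for sphingolipids, fatty acids and their handling, 16 were higher than in the other types and none lower (median log2 fold change 2.73). Ugt8a, which makes galactosylceramide, was at 2764, 3126 and 780 CPM against at most 3.325 CPM (10.37 ± 0.97, adjusted p = 0.000155). Fa2h, which hydroxylates the fatty acids of these lipids, was at 946.5, 987.8 and 306.3 CPM against at most 0.8703 CPM (10.85 ± 1.2, adjusted p = 0.000299). Both were lower in pC than in pA and pB, yet far above every other sum. Enpp2, the enzyme that makes lysophosphatidic acid, stood at 7078, 6113 and 4587 CPM against 34.57 to 90.66 CPM (6.65 ± 0.57, adjusted p = 0.0001).

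Further along these pathways, Abca2, a lipid transporter, had a log2 fold change of 4.85, Cers2, a ceramide synthase for very long chains, 3.91, and Elovl7, a fatty acid elongase, 7.08. Aspa, which frees acetate from N-acetylaspartate, had 7.3. The desaturase gene Scd2 had 11050, 9010 and 3404 CPM, but also 444.1 to 1733 CPM in the other sums (2.77 ± 0.61, adjusted p = 0.00962), and lost its call without pA (0.0992) or without pB (0.0975).

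Cholesterol synthesis behaved otherwise. Of 24 genes of the pathway and its regulators, 2 were higher and none was lower, a share near the 7.83% of all genes, with a median log2 fold change of 0.58. Ebp, a sterol isomerase, was at 91.15, 90.89 and 127.8 CPM against 3.615 to 22.86 CPM (2.89 ± 0.6, adjusted p = 0.00727), and Sc5d, a sterol desaturase, at 293.5, 348.8 and 403.3 CPM against 109.8 to 186.1 CPM (1.27 ± 0.38, adjusted p = 0.0393). Ebp lost its call without pB (adjusted p = 0.0587), and Sc5d without pA, pB or pC (0.169, 0.207 and 0.0991), so 1 gene was higher without pA and 0 without pB. Hmgcs1, an early enzyme of the pathway, varied between letters more than between groups, at 173.5, 779 and 539.6 CPM against 210.2 to 399.7 CPM (adjusted p = 0.323). None of the 24 was higher than in each vSVZ type.

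Among 21 lineage factors tested, 13 were higher and 4 lower than in the other types. The count of higher factors rested on the number of letters: it was 5 without pA, 7 without pB, 8 without pC and 11 without pE. Myrf, the factor that switches on myelin genes, was at 688.6, 420.5 and 421 CPM against at most 1.218 CPM (9.32 ± 0.7, adjusted p = 7.98e-05). Zfp536, a zinc finger repressor, was at 350.1, 499.2 and 461.7 CPM against 5.341 to 10.4 CPM (5.81 ± 0.46, adjusted p = 8.09e-05). Olig1 was at 758.8, 657.5 and 479.7 CPM (6.01, adjusted p = 0.000484). Olig2 was lower in level, at 102.3, 88.18 and 76.72 CPM, and the other sums held 0.4686 to 13.51 CPM (3.72, adjusted p = 0.0115), a call lost without pA (0.0803) or pC (0.0703).

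Factors of earlier stages were the lower members. Sox2, a stem cell factor, was at 39.01, 40.28 and 28.52 CPM against 77.2 to 363.4 CPM (-2.16, adjusted p = 0.0363). Sox2 was not called without pA, pB or pC (adjusted p between 0.0514 and 0.107), nor with the letter as a block (0.0729). Sox5 and Sox6, which hold precursors back from differentiation, stood at no more than 0.5704 and 2.282 CPM against at least 62.68 and 50.31 CPM (adjusted p = 9.43e-05 and 0.00182). Hes5, a Notch target, had a single count in all 58 cells, against 24.66 to 143.9 CPM elsewhere. Tcf7l2, a Wnt effector of the newly formed stage, did not pass the test (-0.45 ± 0.72, adjusted p = 0.761), at 13.73, 37 and 128.6 CPM against 43.67 to 122.3 CPM.

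Genes of precursors were mostly low or absent. Of 16 symbols in the precursor list, 11 passed the filter on low counts against the other types. Of these, 6 were lower and 1 was higher, where 12.5% and 7.83% of all genes were. The higher gene was Gpr17, which is also in the list of the newly formed stage. In the precursor list, 1 gene had counts in at least 90% of the oligodendrocytes and 8 had counts in 10% or fewer. The 8 include Neu4, which cannot be judged here. Cspg4, C1ql1 and Lhfpl3 had no count in any of the 58 cells, and Pdgfra, the growth factor receptor of precursors, had counts in 1 cell. Ptprz1, a receptor phosphatase of precursors and of stem cells (chr6:22875502-23052916), was at 0.597, 4.142 and 0.5704 CPM against 767.7 to 2268 CPM (-9.46 ± 1.04, adjusted p = 0.000292). Vcan, a matrix proteoglycan, was at 0, 1.857 and 0 CPM against 180.2 to 1541 CPM. Neu4 is listed at 0 in every naive WT cell, although other letters of the table hold counts, and no level is drawn from it.

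Genes of the newly formed stage were mixed. Of 16 symbols, 12 were tested, with 3 higher and 3 lower. Enpp6, an enzyme first made as the cell stops dividing, was at 171.9, 335.8 and 397.3 CPM against at most 0.4463 CPM (10.33 ± 0.93, adjusted p = 0.000129), and 37 of 58 cells had counts. Gpr17, a receptor of the same stage, was called too (7.88 ± 1.36, adjusted p = 0.00288), but at only 20.7, 8.19 and 2.567 CPM and with counts in 9 of 58 cells. Bmp4 had counts in 1 cell, and Bmper in none, at least 437-fold lower than in the other types when 3 counts over the group are taken as the floor. Itpr2 and Cemip2 were also lower than in the other types.

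Division genes were low. Of 25 tested, 19 were lower than in the other types and none was higher (median log2 fold change -3.86). Without pB, 12 were lower. Cdk1, the kinase of mitotic entry, had no count in any oligodendrocyte, at least 261-fold below the other types at the same floor, and Aurkb at least 172-fold. Ccnd2, a G1 cyclin, was at 0.398, 1.143 and 5.989 CPM against 692.3 to 5970 CPM (-9.98 ± 1.41, adjusted p = 0.000992). Pcna was at 77.62, 73.04 and 105.8 CPM against 40.58 to 164.8 CPM and did not pass (adjusted p = 0.856). The comparison depends on what stands on the other side: 23 of the 25 were lower than in TAP, where 5.22% of all genes were, 16 lower than in aNSC (4.87%), and 1 lower (6.7%) and 1 higher (4.46%) against qNSC1. Without pE these counts were 12 against TAP and 2 against aNSC, and without pA or pB 18 and 10.

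Of 27 genes that mark states of mature oligodendrocytes, 21 were higher than in the other types and none was lower (median log2 fold change 5.6). Ptgds, a prostaglandin D synthase (chr2:25466709-25470046), was at 3991, 6566 and 4157 CPM against 3.593 to 16.63 CPM (9.03 ± 0.72, adjusted p = 8.24e-05). Apod, a lipid-binding lipocalin, was at 1831, 2169 and 4060 CPM against at most 3.467 CPM (10.08, adjusted p = 7.98e-05). Trf, the iron carrier transferrin, was at 13560, 10420 and 4913 CPM against 9.565 to 26.68 CPM (9.13 ± 0.7, adjusted p = 7.98e-05), lowest in pC. Il33, a nuclear alarmin, was at 1611, 1512 and 1161 CPM against 25.75 to 65.84 CPM (4.94 ± 0.49, adjusted p = 0.000188).

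Klk6, a secreted protease (chr7:43824499-43832030), differed between letters, at 10.75, 72.61 and 214.5 CPM, and was at 0 in 3 of the 4 sums of other types (11.27 ± 1.44, adjusted p = 0.000607). S100b, a calcium-binding protein, was also highest in pC, at 77.42, 188.7 and 893.5 CPM against 25.37 to 52.99 CPM (3.29 ± 0.76, adjusted p = 0.0123), a call lost without pB (0.0551) or pC (0.0629). Fos stood at 514.2 CPM in pB, and at 10.95 and 10.27 CPM in pA and pC, with 26.24 to 180.2 CPM in the other sums (adjusted p = 0.723).

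Of 12 iron handling genes tested, 3 were higher and 1 lower, where 7.83% and 12.5% of all genes were. Besides Trf, these were Fth1, the heavy chain of ferritin, at 4756, 5796 and 5682 CPM against 200.1 to 471.1 CPM (4.29 ± 0.49, adjusted p = 0.000334), and Slc48a1, a heme transporter, at 1091, 1337 and 867.6 CPM against 53.59 to 199.4 CPM (3.4 ± 0.53, adjusted p = 0.00168). Ftl1, the ferritin light chain, was at 291, 328.4 and 551 CPM against 199 to 888.1 CPM (-0.35 ± 0.54, adjusted p = 0.739). Ferritin genes have many near-identical copies, so these values are uncertain. Steap3, an iron reductase, was the lower gene, and was not called without pA (0.0509).

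Of 26 genes of signalling between axons and glia, 15 were higher and 3 lower (median log2 fold change 2.31). Erbb3, a receptor for neuregulins, was at 388.5, 241.9 and 272.4 CPM against at most 2.721 CPM (8.45 ± 1.18, adjusted p = 0.000939). Its partner receptor Erbb2 was at 0, 0.04761 and 0 CPM against 3.236 to 9.81 CPM. The ligand Nrg1 had no count in the 58 cells, at least 585-fold lower than in the other types at the floor of 3 counts. The lipid receptors Lpar1 and S1pr5 had 667.1, 1001 and 1591 CPM and 298.9, 267.1 and 530.5 CPM (log2 fold changes 7.45 and 8.7). Slc16a1, the transporter that passes lactate to axons, was at 289.6, 315.8 and 109.2 CPM against 10.68 to 65.68 CPM (2.9 ± 0.64, adjusted p = 0.0102), a call lost without pA (0.0906) or pB (0.0985). Plxnb3, a semaphorin receptor, and Unc5b, a netrin receptor, had log2 fold changes of 9.24 and 6.79.

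Channel and gap junction genes had 11 of 15 higher and none lower (median log2 fold change 5.01). Gjb1, connexin 32 (chrX:101376378-101385629), was even across letters at 491.4, 453.3 and 466.6 CPM against at most 0.4463 CPM (11.15 ± 1.2, adjusted p = 0.00027). Gjc3, another connexin, was at 1718, 2161 and 2286 CPM (6.88 ± 0.49). Kcna1, a voltage-gated potassium channel, was at 855.6, 1168 and 502 CPM (11.13). Kcnj10, a potassium channel known from astrocytes as well, was at 984.3, 766.5 and 474 CPM, and the other sums held 82.64 to 214.1 CPM (2.52 ± 0.49, adjusted p = 0.00526), with no call without pA (0.0698) or pB (0.0635).

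Of 26 cytoskeleton genes tested, 13 were higher and none lower (median log2 fold change 2.64). Tppp, which nucleates microtubules in the myelin sheath, was at 3598, 3838 and 1862 CPM against 1.117 to 14.03 CPM (8.94 ± 1.07, adjusted p = 0.000427). Tubb4a, a tubulin of mature oligodendrocytes, was at 3411, 2492 and 984.5 CPM against 9.728 to 88.1 CPM (5.47, adjusted p = 0.0017). Mapt and Fez1, which neuroblasts also make, had 1660, 1512 and 2909 CPM and 1103, 1253 and 1296 CPM (2.81 and 2.94). Sept2, Sept4, Sept7 and Sept8 are listed at 0 in all naive WT cells but not in other letters, so the septins could not be described.

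Markers of astrocytes, quiescent stem cells and neuroblasts were mostly lower in the oligodendrocyte sums. Of 20 genes of astrocytes and quiescent stem cells, 19 were lower than in the other types and none higher (median log2 fold change -8.49). Slc1a2, the main glutamate transporter of astrocytes, was at 74.23, 89.23 and 20.53 CPM against 4249 to 16280 CPM (-7.33 ± 0.85, adjusted p = 0.000372). Glul, glutamine synthetase, was the exception, at 2271, 2145 and 1357 CPM against 612.5 to 1848 CPM (0.86 ± 0.48, adjusted p = 0.268). The list summed to 166.8 to 7620 CPM per oligodendrocyte, with a median of 1492 CPM, and to 28830 to 116000 CPM per qNSC1 cell.

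All 19 neuroblast genes tested were lower (median log2 fold change -9.78, or -9.4 with genes at 0 set to their bound). Dcx, a microtubule protein of migrating neuroblasts, was at 0.597, 1.524 and 0.2852 CPM against 109.2 to 2241 CPM. Per cell the list summed to 0 to 385.5 CPM, with a median of 18.45 CPM, against 6447 to 24580 CPM in neuroblasts. Of 12 microglia symbols, 5 passed the filter and none was called in either direction. C1qc and Tmem119 had no count in the 58 cells, C1qa, C1qb, Aif1 and Tyrobp are listed at 0 in all naive WT cells, and the list summed to 0 to 166.7 CPM per oligodendrocyte, with a median of 7.438 CPM, against 0 to 351.7 CPM in the other types.

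Endothelial, pericyte, mature neuron and ependymal lists reached medians of 49.73, 2.32, 20.46 and 2.47 CPM per oligodendrocyte, and 42.6, 10.57, 112.5 and 8.583 CPM in the other cells. Emcn, Kcnj8 and Meg3, members of the first 3 lists, are listed at 0 in all naive WT cells but not in other letters. They add nothing to these values. Against the other types 1 of 3 endothelial, 2 of 3 pericyte, 5 of 9 mature neuron and 4 of 8 ependymal genes tested were lower. Without pB the last 2 counts were 0 and 2, without pA 2 and 3, and without pC 3 and 4. The endothelial gene, Esam, was not called without pA (0.173), without pC (0.054) or with the letter as a block (0.0799). Kdr, an endothelial receptor for vascular growth factor, was at 0.398, 9.57 and 51.91 CPM against 11.62, 0.06695, 0 and 0 CPM and did not pass with all letters (2.8, adjusted p = 0.433). Without pA it was called higher (9.87, adjusted p = 0.00794). With all letters, the only higher gene among these was Foxj1, a ciliary transcription factor, at 15.72, 25.76 and 12.55 CPM against 0.3347 to 4.305 CPM (2.83 ± 0.88, adjusted p = 0.0486), while Tekt1, another ciliary gene, had no count. Foxj1 lost its call without any 1 of the 4 letters (adjusted p between 0.0579 and 0.194) and with the letter as a block (0.0698). Of 16 antigen presentation and immune genes tested, Il33 was higher and Tap1 and Tap2 were lower. These counts are near the shares of all genes, 7.83% higher and 12.5% lower. Tap1 had no call without pA (0.073), without pB (0.0878) or with the block (0.0581).

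**Figure D2:**
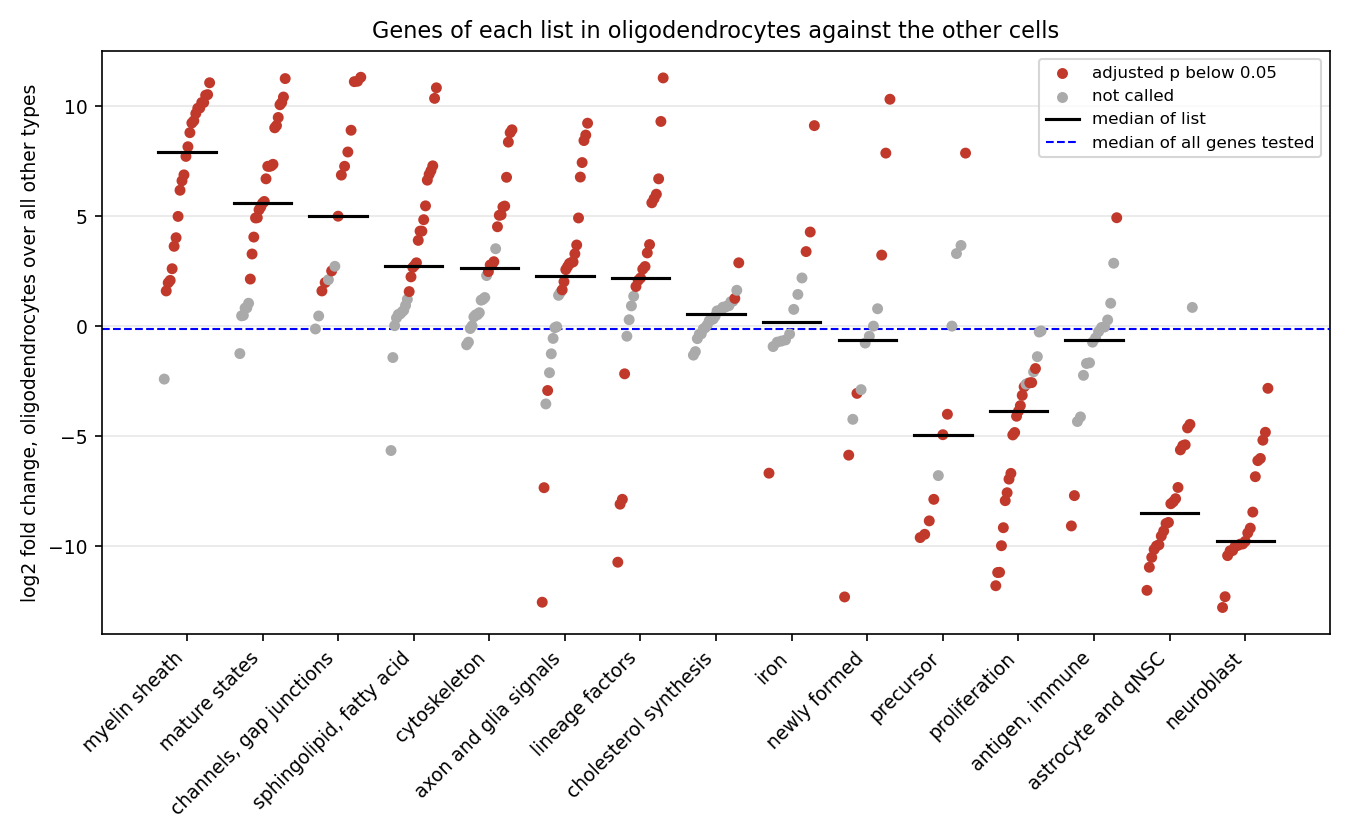
Log2 fold change of oligodendrocytes against all other types for each tested gene of each list; a point is a gene, red where the adjusted p is under 0.05, the black bar is the list median and the blue dashed line the median of all genes tested. Sheath, mature state and channel genes lie mostly above the dashed line, with medians of 7.95, 5.6 and 5.01. Cholesterol genes lie near the line at 0.58, and astrocyte and neuroblast genes lie mostly below it.

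Beyond the lists, 15 genes were named for the largest smallest distance from the 5 vSVZ types. They include Sox10, Gjb1, Kcna1, Mal, Klk6 and Fa2h, described above. In the single-type sums Hapln2, a link protein of the matrix at nodes of Ranvier, was at 540.6, 442.7 and 461.8 CPM, with no other sum above 1.157 CPM. Smco3, a small membrane protein, was at 169.2, 196.4 and 133.9 CPM, and Galnt6, which starts O-glycan chains, at 540.4, 360.1 and 306.1 CPM. Ppp1r14a, a phosphatase inhibitor, was at 149.3, 165.7 and 796.1 CPM, and Cyp27a1, a sterol hydroxylase, at 104, 100.8 and 201.3 CPM. Gm21698, Gm7347 and Gm19963 also qualified; they are predicted genes, with a processed pseudogene among them, and share sequence with other loci, so their counts are uncertain. With the letter as a block Smco3 and Cyp27a1 were not called against aNSC (adjusted p = 0.0519 and 0.0546), and those predicted genes against neither aNSC nor TAP. Without pC, Smco3 was not called against aNSC (0.0519), nor was Cyp27a1 against aNSC (0.0868) or TAP (0.0681). Klk6 lost its call against aNSC without pB (0.054), pC (0.165) or pE (0.106), and Gm21698 and Gm19963 lost calls without more than 1 of the letters.

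Of the 10 genes named for being lowest against each vSVZ type, 8 had no count in any of the 3 sums. These were Sfxn1, a mitochondrial serine carrier, Sox21, a stem cell repressor, B4galt1, Lrp3, Spats2, Fbln1, Kcnk10 and Lrrc9. Sfxn1 was at 46.32 to 189.2 CPM in the other types. Ezr, which ties actin to the membrane, was at 0, 0.09138 and 0 CPM against 82.32 to 531.7 CPM, and Flrt2, an adhesion protein, had a single count. Fbln1 was not called against aNSC without pB (0.0568) or pC (0.0966), nor Flrt2 against TAP without pC (0.0809).

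The gates give a comparison that does not use the type labels. Against the ASTRO gate, 622 of 14348 genes were higher in the OLIGO gate (4.34%) and 1230 lower (8.57%). Against the NB gate 1087 were higher (7.58%) and 1163 lower (8.11%). Mbp was at 10470, 8683 and 9195 CPM in the OLIGO gate of pA, pB and pC, at 24.31, 3.195 and 5.685 CPM in the ASTRO gate (9.73 ± 1.72, adjusted p = 0.00312) and at 36.67, 34.57 and 11.47 CPM in the NB gate (8.42 ± 1.63, adjusted p = 0.00433). Without pA or without pB the adjusted p for Mbp lay between 0.0603 and 0.0787. Sox10 was at 244.2, 197 and 186.3 CPM, against at most 0.2407 CPM in the ASTRO and NB gates (adjusted p = 0.00213 and 0.00179).

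Those calls rest on 3 letters, and leaving out pA or pB took the ASTRO comparison from 1852 to 439 or 417 genes, and the NB comparison from 2250 to 686 or 605. Without pC they were 1418 and 1734. Ndrg1, Mog and Jam3 were likewise called against both gates with 3 letters. Without pB, Mog was called against neither gate (0.0526 and 0.106), nor Sox10 (0.0529) and Jam3 (0.139) against ASTRO. Without pA the adjusted p against the NB gate was 0.0725 for Ndrg1, 0.146 for Mog and 0.0716 for Sox10. Without pA the adjusted p against the ASTRO gate was 0.0751 for Ndrg1, 0.0738 for Mog, 0.0777 for Jam3 and 0.0724 for Sox10.

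The sheath list had 19 of 24 genes higher against the ASTRO gate (median log2 fold change 8.37) and 23 of 24 against the NB gate (7.91), with none lower, where the medians of all genes were -0.23 and -0.19. With pA or pB left out few of them were called: 0 without pA and 4 without pB against ASTRO, and 5 without either against NB, while without pC they were 20 and 23. Cholesterol genes had 1 of 24 higher against ASTRO and 7 of 24 against NB, and 0 in both without pA or without pB. Named genes of these comparisons included Cryab, a small heat shock protein, at 1339, 1374 and 1257 CPM against 1.083 to 3.681 CPM in the ASTRO gate (8.93 ± 1.3, adjusted p = 0.0011), and Aplp1, a homologue of the amyloid precursor, at 3572, 1970 and 1953 CPM against 74.44 to 91.7 CPM (4.94 ± 0.64, adjusted p = 0.000574). Against the NB gate they included Kcnj10, at 1056, 666.5 and 456.6 CPM against 1.124 to 1.984 CPM (8.89 ± 0.77, adjusted p = 6.14e-05), and Pde4b, a cyclic AMP phosphodiesterase, at 1214, 1031 and 489 CPM against 2.024 to 6.971 CPM (log2 fold change 7.46). Zeb1, a repressor of differentiation, was lower, at 0.5495 to 1.334 CPM against 238.3 to 609.7 CPM.

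Against the NSC gate, 34 of 14348 genes were higher in the OLIGO gate (0.237%) and 841 lower (5.86%). Letters pair the sums, and with the letter as a block the higher count was 216 and the lower 985. Mbp was at 1263, 3172 and 12.17 CPM in the NSC gate of pA, pB and pC, so the letters with oligodendrocyte-labelled cells in that gate were high and pC, with none, was low (2.67 ± 1.25, adjusted p = 0.277). Sox10 followed with 25.74, 70.15 and 0 CPM (adjusted p = 0.241) and Ndrg1 with 236.1, 585.4 and 1.738 CPM. Jam3 was called, at 330.7, 368.8 and 330 CPM against 32.21, 91.48 and 29.99 CPM (2.74 ± 0.6, adjusted p = 0.0152), but lost its call without any of the 3 letters. The same held for each of the 10 named higher genes, among them Dusp3, a phosphatase, at 466.1, 479.5 and 851.7 CPM against 86.58 to 136.4 CPM.

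Genes lower than in the NSC gate had groups far apart. Ptprz1 was at 0.6905, 0.6114 and 0.5495 CPM against 3304, 1315 and 1553 CPM (-11.67 ± 0.88). Ezr was at 0, 0.05558 and 0 CPM against 201.2 to 367.6 CPM, and Pou3f2, a neural factor of progenitors, at 1.151, 0.5003 and 0.8242 CPM against 175.2 to 302 CPM (log2 fold change -8.11). Of the astrocyte and quiescent stem cell list 19 of 20 were lower (median -10.57).

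With the 8 oligodendrocyte-labelled cells taken out of the NSC gate, 721 of 14187 genes were higher in the OLIGO gate (5.08%) and 1187 lower (8.37%). Mbp was then at 18.35, 18.03 and 12.62 CPM in the NSC gate against 10330, 8934 and 9007 CPM (9.17 ± 0.93, adjusted p = 5.49e-05), and Sox10 at 0, 0.1502 and 0 CPM. Jam3 was at 31.87, 28.39 and 31.09 CPM (3.49 ± 0.53, adjusted p = 0.000758). The sheath list had 19 of 24 higher and none lower (median 8.53), where it had 1 of 24 with those cells in. This comparison uses the type labels to remove cells.

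Per cell, the OLIGO-gate cells and the NSC-gate oligodendrocytes lay apart from all other cells of the 4 gates on the sheath list. OLIGO-gate cells had 72140 to 141600 CPM of the 24 genes (median 103200), and the 8 NSC-gate oligodendrocytes 98110 to 133600 CPM (median 104500). The other 33 NSC-gate cells had 654.2 to 6235 CPM, ASTRO-gate cells 220.5 to 6862 CPM and NB-gate cells 289.9 to 4486 CPM. Some sheath genes, such as Gpm6b, are made by these other cells too. Median sheath levels in the OLIGO gate were 111700 CPM in pA, 118600 in pB and 83840 in pC.

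**Figure D3:**
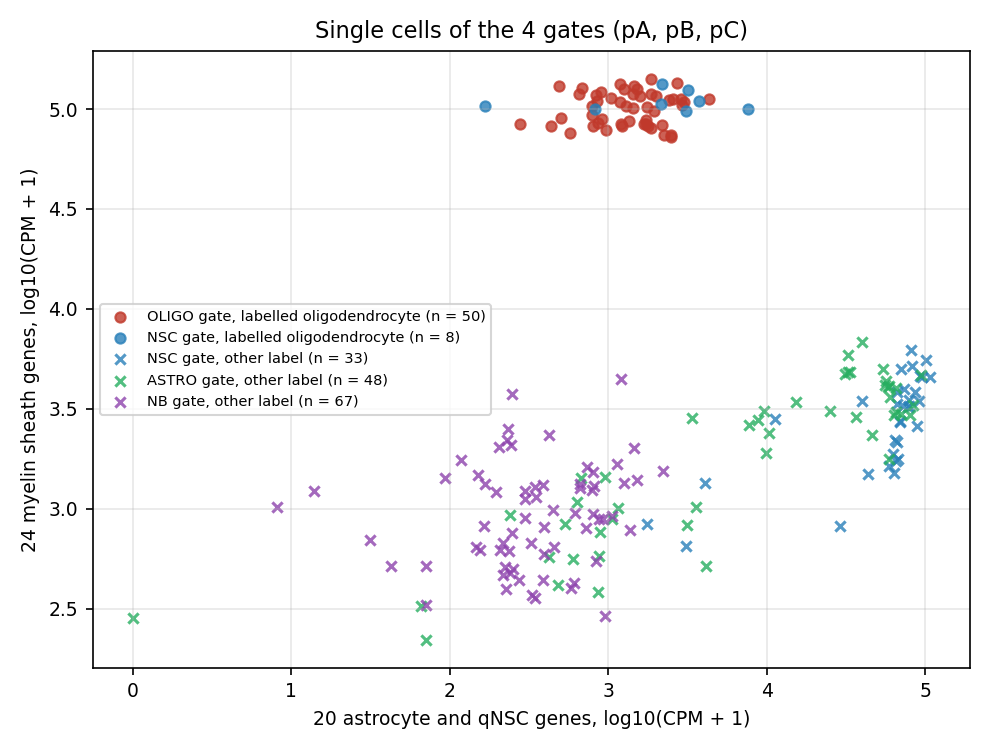
Summed CPM of the 24 sheath genes against summed CPM of the 20 astrocyte and quiescent stem cell genes in each cell of the 4 gates of pA, pB and pC, both axes log10 of CPM with 1 added. The 50 OLIGO-gate cells and the 8 NSC-gate oligodendrocytes form a group at or above 72140 CPM of sheath genes, and no other cell exceeds 6862 CPM.

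Mbp and Mal were high in every oligodendrocyte, and genes of mature states varied from cell to cell. Mbp ranged from 3188 to 15150 CPM per cell and Mal from 2062 to 12990 CPM. Not every marker was high in each cell. Jam3 was at 31.04 CPM in the NSC-gate cell NSC2 of pA, and Sox10 at 25.16 CPM in the lowest OLIGO-gate cell of pB. Ptgds ranged from 5.351 to 11750 CPM in pA, from 15.05 to 12140 CPM in pB and up to 11960 CPM in pC. Cells under 1000 CPM of Ptgds were 3 of 9, 7 of 24 and 11 of 25 in the 3 letters.

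Spearman's correlations with Ptgds were taken within each letter, after thinning each cell to 100000 counts, which kept 9, 24 and 21 cells of pA, pB and pC. They are descriptions over cells that share a library and its animals, over 7832 genes, and the genes below were chosen in pB and pC after their values were seen. Letter pA was not used for the choice. Highest in size with Ptgds was Cd9, with coefficients of 0.77 in pB, 0.87 in pC and 0.68 in pA. Opalin, a sialylated protein of mature sheaths, had 0.6, 0.83 and 0.32. Nfasc, the gene of neurofascin, had 0.62, 0.69 and 0.75, and Phldb1 had 0.63, 0.71 and 0.91.

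Running against Ptgds were Enpp6 (-0.78 in pB, -0.81 in pC and -0.81 in pA), Apod (-0.75, -0.92 and -0.72) and Selenop, a selenium carrier (-0.79, -0.72 and -0.84). Pmp22, a myelin protein best known from peripheral nerve, had -0.77, -0.79 and -0.89, and Anln, a scaffold of myelin septins, had -0.65, -0.81 and -0.91. In pA 11 of the 12 genes chosen with Ptgds and 12 of the 12 chosen against it kept the sign. How many of all compared genes did so was not computed. Counts of Ccdc152 also ran against Ptgds, but that gene overlaps Selenop. In all, 27 genes reached 0.6 in size with the same sign in both pB and pC.

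**Figure D4:**
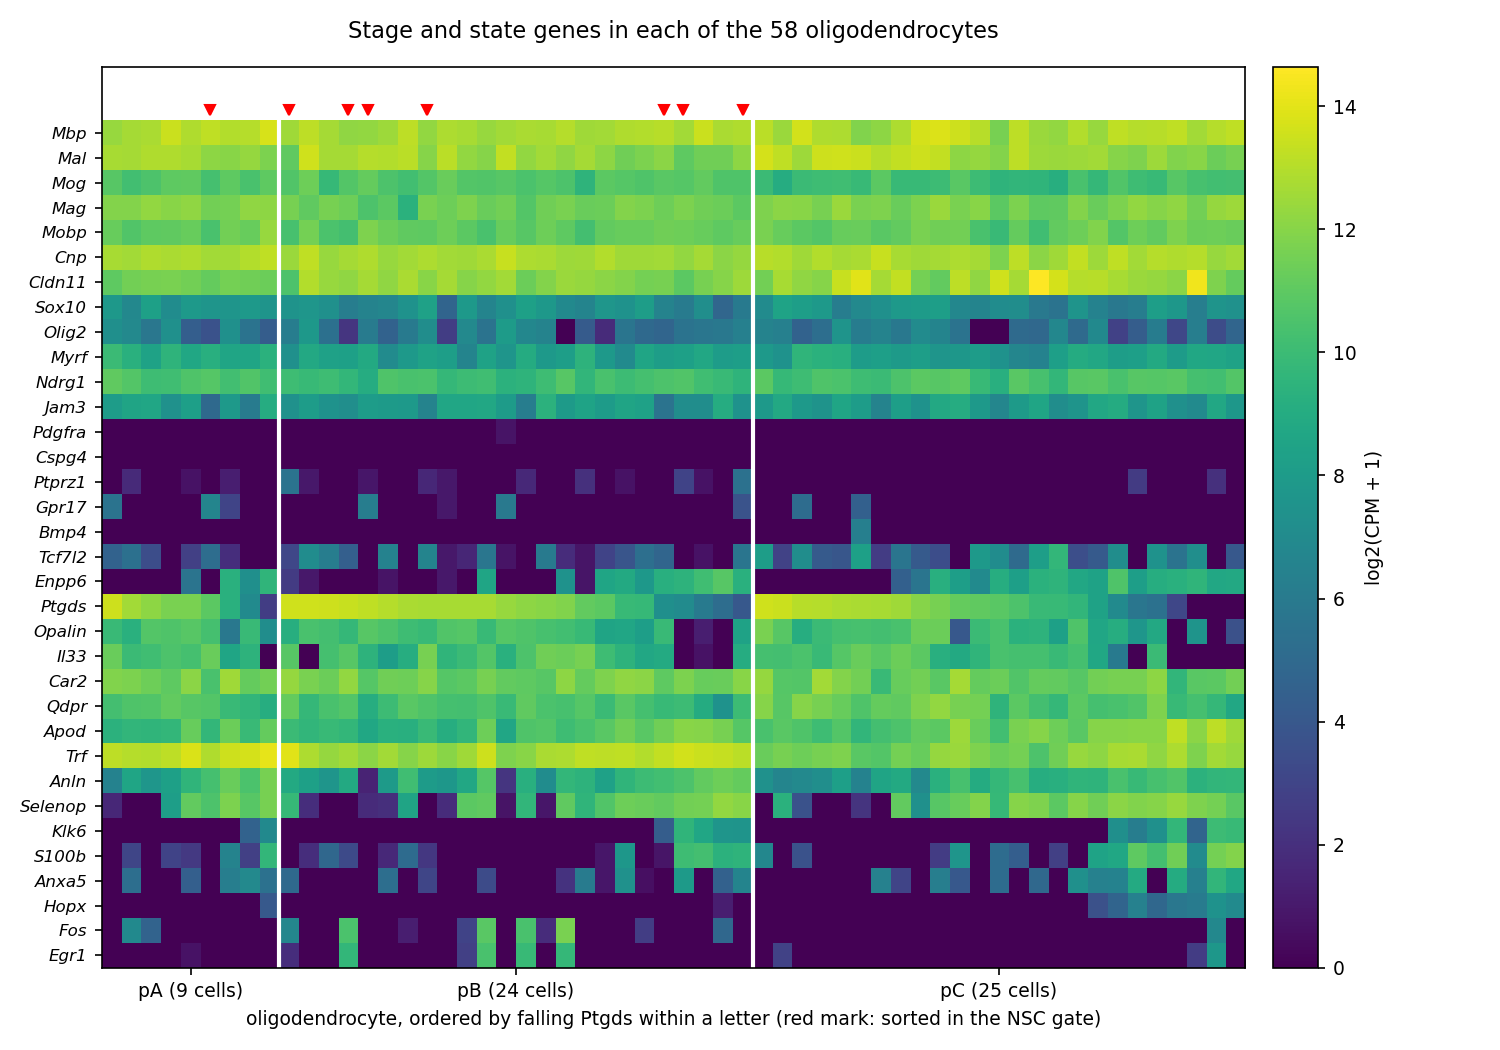
Log2 of CPM with 1 added for 34 genes of stages and states (rows) in the 58 oligodendrocytes (columns), ordered within pA, pB and pC by falling Ptgds; red marks are NSC-gate cells. Mbp and Mal are high in all columns, precursor genes are mostly near 0, and Apod, Enpp6 and Selenop are higher where Ptgds is low.

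Klk6 was found in few cells. Counts were present in 14 of 58 oligodendrocytes (24.1%, exact binomial 95% interval 13.9% to 37.2%), 2 in pA, 5 in pB and 7 in pC, and in 25.9% after thinning. This interval, like that of Il33 below, takes the cells as independent draws, although cells of a letter share their animals. No thinned qNSC1 cell or neuroblast had a count. All 14 cells had S100b, which 34 of 58 had, and all 14 had Enpp6. Of the 10 cells with Hopx, 9 had Klk6. Ptgds in cells with Klk6 reached at most 127 CPM in pA, 155 in pB and 124.8 in pC, where the letter medians were 3238, 4973 and 1892 CPM.

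Il33 was in 49 of 58 cells (84.5%, 72.6% to 92.7%, or 81.5% after thinning), and 6 of the 14 Klk6 cells had it. The coefficient of Klk6 with Il33 was -0.64 in pA, -0.6 in pB and -0.73 in pC, and that with S100b 0.5, 0.67 and 0.86. Apod and Enpp6 varied together (0.81, 0.82 and 0.74). All 37 cells with Enpp6 also had Selenop, which 49 cells had.

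**Figure D5:**
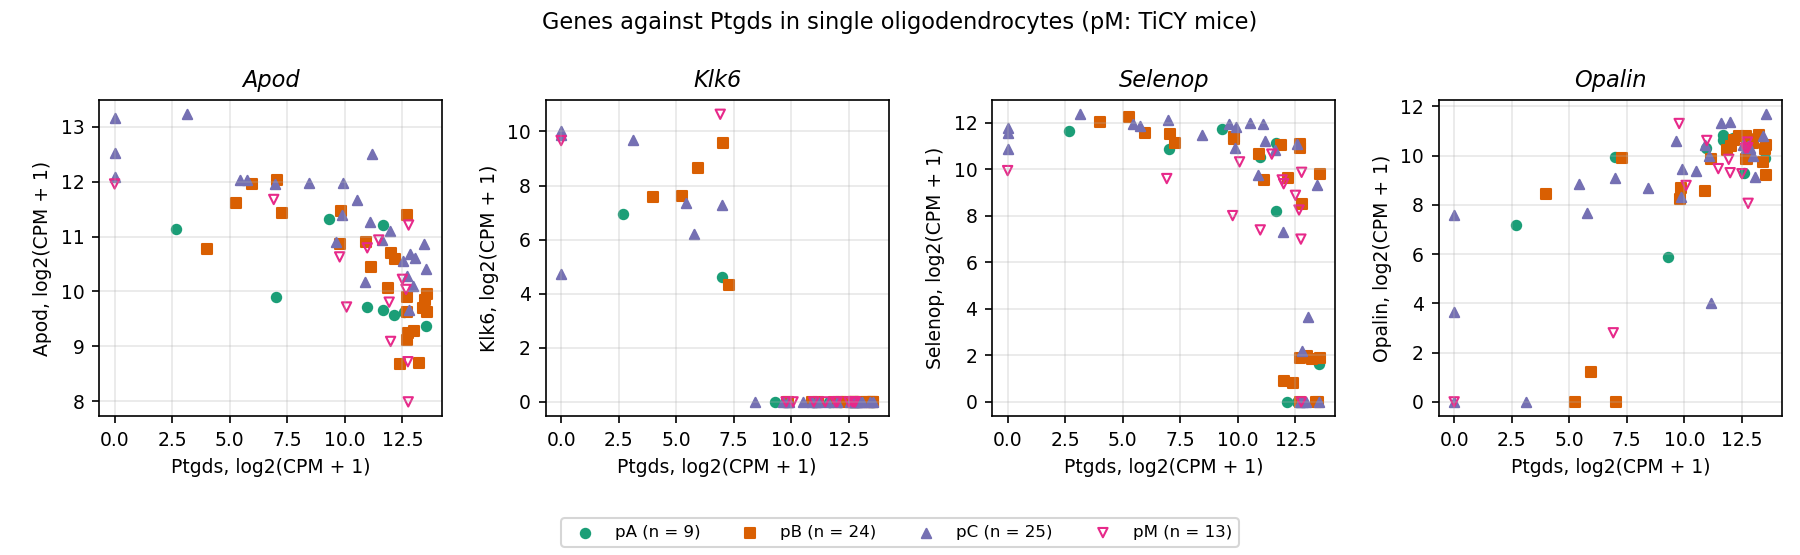
Apod, Klk6, Selenop and Opalin against Ptgds in single oligodendrocytes, log2 of CPM with 1 added on both axes, with 9 cells of pA, 24 of pB, 25 of pC and 13 of the naive TiCY letter pM. Apod, Klk6 and Selenop are high mainly where Ptgds is low, and Opalin is mostly high where Ptgds is high.

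Oligodendrocytes of the OLIGO and NSC gates were also compared with each other, in a fit with the letter as a block. NSC-gate oligodendrocytes form a single sum (pB, 7 cells), assumed to vary like the other groups. Of 16431 genes 3 were called (0.0183%), none higher and 3 lower in the OLIGO gate, and 512 had an unadjusted p under 0.05. Ptprz1 was at 14.83 CPM in the NSC-gate sum and at 0.7157, 0.6778 and 0.5513 CPM in the OLIGO-gate sums (-4.29 ± 0.46, adjusted p = 0.00681). Nav3, a microtubule regulator of migrating neurons (chr10:109681259-110456204), was at 49.37 CPM against 0, 0.1232 and 0.2757 CPM (-8.38 ± 1.08, adjusted p = 0.0246). Sox4, a progenitor factor (chr13:28948919-28953713), was at 34.54 CPM against 0, 0.6162 and 1.378 CPM (-6.1 ± 0.81, adjusted p = 0.0252).

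These 3 calls rest on few cells. The cell NSC3 of pB had 47.26 CPM of Ptprz1, 193.8 of Nav3 and 46.32 of Sox4, and without it no gene was called. NSC4 had 42.65 CPM of Ptprz1 and 1330 CPM of Slc1a2, NSC17 had 53.39 CPM of Nav3, and NSC2 had 144.6 CPM of Sox4. No gene was called either without pC or without the block, and 2 without pA. None of the sheath genes was called, and their list had a median log2 difference of 0.37 between gates, against 0.18 over all genes tested. With DESeq2 in place of edgeR, genes were called in both directions between the gates. A single added sum cannot show that the oligodendrocytes of both gates are alike.

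Naive TiCY mice gave 13 further oligodendrocytes, all in letter pM. In TiCY mice, stem cells with Tlx activity are marked by eYFP once tamoxifen is given, and their descendants keep it. This letter has another library set and a median of 135730 counts per oligodendrocyte, so its values are given without a test, with 5 CPM added before each ratio. Of the 232 genes called higher than in each vSVZ type in WT mice, 208 (89.7%) were at least 2-fold above each of the 6 other pM types, as were 835 (4.9%) of all 17024 genes. Of the 251 lower genes, 142 (56.6%) were at least 2-fold below each, against 929 (5.46%) of all genes. The median log2 ratios were 3.1 and -1.24. The reference types differ from those of the WT calls: pM holds no qNSC1, and includes vSVZ astrocytes and striatal astrocytes.

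Mbp was at 10000 CPM in the pM oligodendrocytes (exact Poisson 95% interval 9857 to 10150, counting error only). Sox10 was at 207.5 CPM, Ndrg1 at 1449, Mog at 907.7 and Jam3 at 188.7. Ptprz1 had 1.137 CPM (0.1377 to 4.106). Klk6 was in 2 of the 13 cells and Ptgds in 12. In the 9 pM cells deep enough for thinning, the coefficients with Ptgds were -0.8 for Apod, -0.71 for Anln, -0.36 for Selenop, 0.55 for Cd9 and 0.07 for Opalin. Of the genes chosen in WT mice, 10 of the 12 with Ptgds and 11 of the 12 against it had the same sign in pM. Several could hardly be judged there. Adamts1 had no count in the 9 cells and so no coefficient, Kirrel3 and Ccdc152 had counts in 1 cell, and Acsl3, Tln2 and Sema5a in 2. The share of all compared genes with the same sign was not computed.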

How the data were processed

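The members and gene lists were chosen with earlier results of these data known. RNA of single sorted mouse cells was counted; per the submitters' processing notes, STAR and featureCounts were used with GRCm38 (mm10), while their versions, and how cells were filtered, are not stated there. Each deposited value is a raw read count of a gene in a cell. The table held 2584 cells and 35606 gene identifiers (35496 with a symbol); 603 rows of other cells were not used, and no 2 oligodendrocytes had identical counts. Gene positions come from GENCODE M21 (GRCm38).

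Counts were summed per type or gate and letter, from 3 or more cells, which left out aNSC of pA and pB, TAP of pB and qNSC2 of pC. They were tested by the quasi-likelihood method of edgeR 4.0.16 (R 4.3.3, limma 3.58.1), after TMM scaling and filterByExpr, with p adjusted after Benjamini and Hochberg and a threshold of 0.05; DESeq2 1.42.0 was an alternative. Fits had 7 sums (5 residual degrees of freedom), 18 (11), 12 (8) and 20 (7), in the order all other types, single types, gates, and types within gates. CPM use the TMM-scaled library sizes. Bounds for genes at 0 take 3 counts over the group as the floor and use raw library sizes. The scripts were tested on simulated data with known changes.

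Sums of a letter share animals, so letters pair the samples: deviations from group means correlated at 0.184 to 0.505 in all 9 gate pairs and at 0.014 to 0.501 in 10 type pairs, of which 8 exceeded 0.1. Named were the 5 markers, list members, the 15 genes farthest above and 10 farthest below each vSVZ type, the 10 smallest adjusted p per gate comparison and direction, all genes called between gates within the type, and the 15 highest mean CPM. Of 84 named genes, 15 overlap another gene on the same strand and 44 on either strand, so their reads may be shared. Some genes that the rule names are not reported here. Depth was 28541 to 1842234 counts per oligodendrocyte, and shares have exact binomial intervals. Alternatives were another normalization, DESeq2, no filter, the letter as a block, leaving out letters, adding pD, the cell minimum, and gates. Doublets were not called in this plate-based assay.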

Additional observations from a re-analysis of the deposited data

Results flagged for a closer look

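In 1 of 20 per-cell series tested for outlying cells, a cell stood apart from its group. Among the 7 NSC-gate oligodendrocytes of pB, the cell NSC3 had 251.4 CPM of the summed precursor genes, and the others had 2.349 to 97.85 CPM. Chance flags about 1 in 20 such groups. The same cell had 47.26 CPM of Ptprz1, 193.8 of Nav3 and 46.32 of Sox4, the 3 genes called between gates, and without it no gene was called.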

How the results depend on the processing

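No result reversed under any alternative run. DESeq2 called more genes: 2953 against qNSC1, 3055 against qNSC2, 2662 against aNSC, 3025 against TAP, 3043 against neuroblasts, 1691 against striatal astrocytes, 798 against each of the 5 types, 1968, 3128 and 3652 for the OLIGO gate against the NSC, ASTRO and NB gates, and 71 between gates within the type. With 5 or more cells a sum, 1178 genes differed from qNSC2, 929 from aNSC and 1080 from TAP. For the NSC gate the count of 875 became 487 with pA and pB alone and 1908 without its oligodendrocytes. Between gates within the type it was 0 with no replicate block, 0 with 1 or more cells a sum, and 0 to 4 with single NSC-gate cells left out. Leaving out letters gave 1703 to 2835 genes against all other types, 1090 to 1702 against qNSC1, 851 to 1748 against qNSC2, 625 to 864 against aNSC, 745 to 1165 against TAP, 835 to 1994 against neuroblasts, 530 to 767 against striatal astrocytes, 241 to 297 against each of the 5, 273 to 487, 417 to 1418 and 605 to 1734 for the 3 gates, and 0 to 2 within the type. Fewer sums enter these fits. With the letter as a block 3531 genes differed from all other types, 1201, 2497 and 3210 between gates, and of 670 results on single genes 27 lost their call. The cause of the other shifts was not tested.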

Other observations

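Against neuroblasts alone, some genes of other glia were higher in oligodendrocytes and some were lower. Of the 20 astrocyte and quiescent stem cell genes, 6 were higher in oligodendrocytes than in neuroblasts and 4 lower, with 3 higher without pA or without pB. Over all genes tested 5.47% were higher than in neuroblasts and 5.64% lower. Glul, glutamine synthetase, was at 2296, 2058 and 1282 CPM against 87.23, 120.6 and 94.08 CPM (log2 fold change 4.22 ± 0.41, adjusted p = 6.96e-06), and Slc1a3, a glutamate transporter, at 131.4, 114.3 and 131.7 CPM against 34.44, 44.23 and 17.06 CPM (1.97 ± 0.38, adjusted p = 0.00198). Of 18 antigen presentation and immune genes 5 were higher than in neuroblasts and none lower (3 higher without pA, pB or pC), among them Il18, an interleukin, at 36.41, 105.5 and 52.54 CPM against 0.07029, 7.833 and 1.123 CPM, and the complement gene C4b at 140.6, 54.1 and 102.6 CPM against at most 5.193 CPM. Serpina3n, a protease inhibitor, was at 63.78, 8.27 and 7.005 CPM, and no neuroblast sum had a count. The lower genes of the glial list were Slc4a4, a bicarbonate transporter, Acsl6, an acyl-CoA synthetase, Sox9 and Slc1a2. Slc4a4 was at 0.2012, 0.1828 and 0 CPM against 90.19, 164.1 and 24.25 CPM, and Acsl6 at 1.207, 0.8224 and 0.2694 CPM against 31.28, 53.79 and 21.11 CPM. Sox9 lost its call without pC (adjusted p = 0.0939), and Slc1a2 without pA, pB or pE (0.326, 0.177 and 0.101). The call was lost for Slc1a3 (adjusted p = 0.0584) and C4b (0.166) without pA, for Il18 without pC (0.0883), and for Serpina3n without pA, pB or pC (0.145, 0.0736 and 0.0929). Glul kept its call without any 1 letter.

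Qk and Syt11 were among the 15 genes of highest mean CPM in oligodendrocytes. Both had sizeable levels in the other types as well, and both were called higher than in each of the 5 vSVZ types, with smallest log2 fold changes of 1.66 and 1.64. Qk, an RNA-binding protein of myelinating cells, was at 7170, 6614 and 3821 CPM, with 187.3 to 2422 CPM in the other sums. Syt11, a vesicle protein, was at 4557, 4885 and 6773 CPM, with 382.8 to 3337 CPM. Against all other types summed, Qk lost its call without pA (adjusted p = 0.0793) or pB (0.0601), and Syt11 likewise (0.0734 and 0.0586). Without pA or pB neither was called against qNSC1 (0.14 and 0.0853 for Qk, 0.18 and 0.22 for Syt11).

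Immediate early genes were found in few oligodendrocytes. Fos had counts in 13 of 58 cells (22.4%, or 16.7% after thinning), 2 of pA, 10 of pB and 1 of pC, and the highest cell, of pB, had 3321 CPM. Egr1 had counts in 10 cells, with a highest value of 1372 CPM, also in pB. Within pB the coefficient of Fos with Egr1 was 0.79 over 24 thinned cells. The qNSC2 sum of pB also stood at 634.8 CPM of Fos, against 0 and 10.66 CPM in qNSC2 of pA and pE. The part of the library in these values was not tested.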
